A study of Mus musculus with 4 samples.

Results

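The immediate-early genes described here are 10 of the 34866 genes measured by RNA-seq in 4 libraries of λ-MYC lymphoma cells. They are Fos, Fosb, Fosl2, Jun, Junb, Jund, Egr1, Egr2, Ier2 and Nr4a1. The genes were chosen by name, as members of the AP-1, Egr and Nr4a families together with Ier2, and were proposed with the abundances of these libraries already in view, so their levels and differences are given as a description. All 10 were found in the table by their identifiers in GENCODE M21 (GRCm38). Each library came from spleen cells of 1 of 2 mice that bore an IgM+ Tom+ lymphoma (tumors #1 and #2), sorted as B220+ IgM+ Tom+ or B220+ IgM+ Tom- cells. Both mice were λ-MYC Tom+/ki, with the λ-MYC+/TG transgene, a Cre knock-in and the R26tdTom+/ki reporter, so all 4 libraries share these alleles. The λ-MYC transgene is a human MYC gene under Igλ regulatory sequences, and the Cre switches on the red protein tdTomato for good in a cell that has expressed it. Tom+ cells of both mice thus have a history of Cre expression, and Tom- cells of the same mouse are the control, with 1 library of each per mouse, no healthy B cells for reference and no age or sex of the animals in the labels. Tom status records the past and need not match Cre at the time of the sort. No gene of the table checks the sort itself, since tdTomato is not among its genes.

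Immediate-early genes are switched on within minutes of a stimulus, without new protein synthesis, by factors that wait preformed on their promoters. Fos and Jun proteins pair through leucine zippers to form the AP-1 transcription factor, Egr proteins are zinc finger factors, and Nr4a1 (Nur77) is an orphan nuclear receptor. In B cells they are widely used as readouts of recent B cell receptor or mitogen signaling, and several of them are also known to rise when tissue is taken apart into single cells.

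Promoters from the RefSeq table used (GRCm38.p6) were searched for 8 of the 10 members, all but Egr1 and Ier2. Among these 8, Fos, Fosb, Jun and Nr4a1 had the largest differences between Tom+ and Tom- cells of tumor #1, and their promoters are shown. Egr1 had a larger difference there than Jun but was not among the members searched. The start of Nr4a1 lies inside the annotated gene, at the start of its shorter coding transcript. Each line below gives the 250 bases before the annotated transcription start, written in the direction of transcription, with matches to any motif searched in capitals.
Fos (chr12:85473640-85473889, plus strand): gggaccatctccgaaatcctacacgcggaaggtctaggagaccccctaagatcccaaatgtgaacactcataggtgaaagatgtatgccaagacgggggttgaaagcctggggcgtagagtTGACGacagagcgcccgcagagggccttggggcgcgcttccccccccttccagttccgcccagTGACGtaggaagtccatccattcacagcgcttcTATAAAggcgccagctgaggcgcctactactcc
Fosb (chr7:19310046-19310295, minus strand): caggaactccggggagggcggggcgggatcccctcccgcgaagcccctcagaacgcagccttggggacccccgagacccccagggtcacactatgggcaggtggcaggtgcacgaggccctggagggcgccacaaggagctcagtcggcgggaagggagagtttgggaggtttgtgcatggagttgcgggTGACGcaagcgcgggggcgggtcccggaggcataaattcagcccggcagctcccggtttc
Jun (chr4:95052223-95052472, minus strand): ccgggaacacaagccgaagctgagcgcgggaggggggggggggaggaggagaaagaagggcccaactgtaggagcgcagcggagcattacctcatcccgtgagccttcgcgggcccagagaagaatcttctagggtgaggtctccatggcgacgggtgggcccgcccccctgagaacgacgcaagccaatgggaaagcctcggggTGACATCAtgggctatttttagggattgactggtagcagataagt
Nr4a1 (chr15:101266596-101266845, plus strand): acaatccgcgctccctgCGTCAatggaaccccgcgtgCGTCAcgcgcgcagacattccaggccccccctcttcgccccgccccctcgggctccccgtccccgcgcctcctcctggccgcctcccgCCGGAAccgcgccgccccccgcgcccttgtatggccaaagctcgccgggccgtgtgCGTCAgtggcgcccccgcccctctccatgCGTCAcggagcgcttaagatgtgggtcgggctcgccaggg

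The motifs were searched on both strands. They were the core of the cAMP response element (TGACG, which reads CGTCA on the other strand), a longer cAMP response element in which the fifth base is free (TGACNTCA, which contains the core where that base is G), the AP-1 site (TGANTCA), the Ets site (CCGGAA), the TATA box (TATAAA), the Egr site (GCGTGGGCG), the Nr4a site (AAAGGTCA) and the CArG box. The core was found in 5 of the 8 genes searched (Fos, Fosb, Junb, Egr2 and Nr4a1) and in 17.8% of the 32851 windows of the same length, some genes having several windows. In the Fos promoter it starts at bases -129 and -66, and a TATA box starts at -33 (12.4% of windows). In Fosb it starts at -60. Nr4a1 holds 4 copies of the core, all on the opposite strand, and an Ets site (12% of windows), which Egr2 also holds. The Jun window has no copy of the core but a match to the longer element at -45, a motif found in 7.49% of windows. The CArG box, the site of serum response factor, was found in Egr2 only among the 8 genes (1.47% of windows). The AP-1, Egr and Nr4a sites were found in none of the 8. Egr1 and Ier2 were not searched, so these counts do not cover them. Egr2 had 5 windows, and a match in any of them counted for the gene. The Jund window (chr8:70697489-70697738) ends short of the GENCODE start of the gene at 70698949, so the bases just before that start were not searched. A match is only a string of letters, and a motif that is missing here may lie outside the window.

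**Figure D1:**
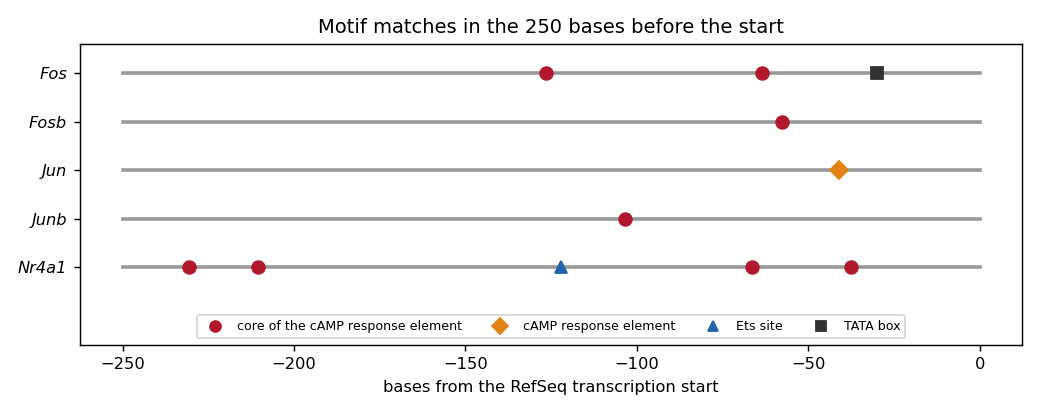
Motif matches before the transcription start of 5 of the immediate-early genes. The horizontal axis gives bases from the RefSeq start, each row is 1 gene, and each symbol is the center of 1 match. Fos, Fosb, Junb and Nr4a1 hold the core of the cAMP response element and Jun holds the longer element at -45.

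Over the 10 genes, the tumor #1 Tom+ library stood apart. Abundance is given as TPM, a share of all transcripts that corrects for transcript length and can be compared between genes. The 10 genes summed to 43.1 TPM in tumor #1 Tom- cells, 152 TPM in tumor #1 Tom+ cells, 43.6 TPM in tumor #2 Tom- cells and 31.9 TPM in tumor #2 Tom+ cells. Their median was 1.41, 8.33, 3.49 and 2.40 TPM in the same order. For 8 of the 10 genes the highest of the 4 values was that of tumor #1 Tom+ cells, as it was for 17% of the 11339 genes that reached 1 TPM in 2 or more libraries (the genes tested). The exceptions were Fosl2 and Jund. For 4 of the 10, Fos, Egr1, Egr2 and Ier2, the lowest value was that of tumor #2 Tom+ cells, as it was for 26.2% of the genes tested. TPM keeps no record of read numbers, so the depth behind these values is unknown and no counting error can be attached to them, and with a pair of libraries per tumor the differences within a tumor have no replicate check.

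Fos, the inducible founding member of the family (ENSMUSG00000021250, chromosome 12, 85473890 to 85477273, plus strand, GRCm38), was at 16.4 TPM in Tom- and 79.2 TPM in Tom+ cells of tumor #1. In tumor #2 the Tom- value was 5.59 TPM and the Tom+ value 3.19 TPM. Fos was thus the most abundant of the 10 genes in both libraries of tumor #1, where Tom+ lay above Tom-, while in tumor #2 it ranked 3 and 4 and Tom+ lay below Tom-. The difference on the log2(TPM + 1) scale, Tom+ minus Tom-, was 2.21 in tumor #1 and -0.66 in tumor #2, and this scale understates differences of genes with low TPM. Fosb, a relative that like Fos is normally low in resting cells (chromosome 7, 19302696 to 19310051, minus strand), was at 1.12 TPM (Tom-) and 20.9 TPM (Tom+) in tumor #1, against 1.95 TPM (Tom-) and 2.17 TPM (Tom+) in tumor #2. It had the largest difference of the members in tumor #1 (3.37 on the log2 scale), where it went from rank 7 to rank 2 among the 10, and 3 of its 4 libraries were between 1 and 3 TPM. Fosl2 (Fra-2), a more slowly induced member of the Fos family (chromosome 5, 32135801 to 32157842, plus strand), was at 0.858 TPM (Tom-) and 0.649 TPM (Tom+) in tumor #1, against 6.46 TPM (Tom-) and 4.03 TPM (Tom+) in tumor #2. Both of its values in tumor #2 lay above both in tumor #1, with Tom+ somewhat below Tom- in both (-0.17 and -0.57 on the log2 scale).

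**Figure D2:**
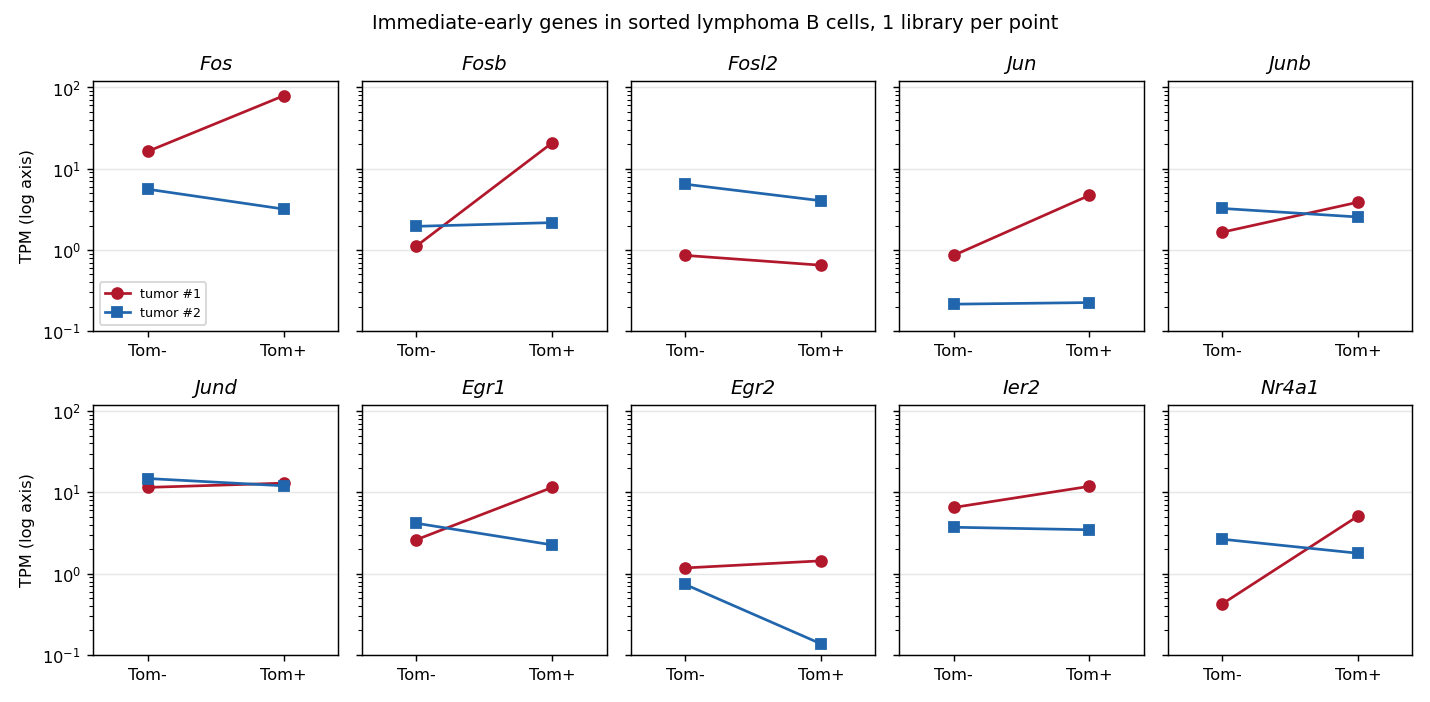
Abundance of the 10 immediate-early genes in Tom- and Tom+ cells, in TPM on a log axis, with 1 panel per gene, circles for tumor #1 and squares for tumor #2. Each point is 1 library and a line joins the libraries of a mouse. The lines of Fos, Fosb, Jun, Egr1 and Nr4a1 climb in tumor #1, while those of tumor #2 are level or descend, and Jund is level in both.

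Jun (c-Jun), the main partner of Fos (chromosome 4, 95049034 to 95052222, minus strand), was scarce. It was at 0.856 TPM (Tom-) and 4.71 TPM (Tom+) in tumor #1, against 0.215 TPM (Tom-) and 0.225 TPM (Tom+) in tumor #2. It reached 1 TPM in tumor #1 Tom+ cells alone, so it fell short of the limit for testing and was the only one of the 10 to do so. Its difference on the log2 scale was 1.62 in tumor #1 and 0.012 in tumor #2. Junb, which forms weaker AP-1 activators than c-Jun (chromosome 8, 84974484 to 84978718, minus strand), was at 1.65 TPM (Tom-) and 3.87 TPM (Tom+) in tumor #1, against 3.24 TPM (Tom-) and 2.55 TPM (Tom+) in tumor #2. Its spread over the 4 libraries was small, and the difference was 0.88 in tumor #1 and -0.26 in tumor #2. Junb overlaps Prdx2 on the opposite strand, which was listed between 79 and 137 TPM, and whether the counting used strand is not given in the sources used here, so reads of the overlap may have been split between the genes. Jund, the Jun gene that most cells express without a stimulus (chromosome 8, 70698949 to 70700616, plus strand), was at 11.5 TPM (Tom-) and 13 TPM (Tom+) in tumor #1, against 14.8 TPM (Tom-) and 12.1 TPM (Tom+) in tumor #2. Jund was the most even of the 10, and it was the most abundant of them in both libraries of tumor #2. Its difference was 0.16 in tumor #1 and -0.28 in tumor #2.

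Egr1, a zinc finger factor induced by receptor signals through ERK (chromosome 18, 34859823 to 34864984, plus strand), was at 2.62 TPM (Tom-) and 11.5 TPM (Tom+) in tumor #1, against 4.17 TPM (Tom-) and 2.26 TPM (Tom+) in tumor #2. The Tom- libraries were close to each other and the Tom+ libraries lay on either side of them, with a difference of 1.79 in tumor #1 and -0.67 in tumor #2 on the log2 scale. Egr2 (Krox20; chromosome 10, 67535475 to 67542188, plus strand), its relative, was scarcer. It was at 1.18 TPM (Tom-) and 1.44 TPM (Tom+) in tumor #1, against 0.739 TPM (Tom-) and 0.137 TPM (Tom+) in tumor #2. All of these values were low, with tumor #2 Tom+ cells lowest, and the difference was 0.16 in tumor #1 and -0.61 in tumor #2. Ier2, a small nuclear protein (chromosome 8, 84661331 to 84662852, minus strand), was at 6.52 TPM (Tom-) and 11.9 TPM (Tom+) in tumor #1, against 3.73 TPM (Tom-) and 3.47 TPM (Tom+) in tumor #2. Both values of tumor #1 lay above both of tumor #2, and the difference was 0.78 in tumor #1 and -0.081 in tumor #2. Nr4a1, which is used as a reporter of B cell receptor signaling in mice (chromosome 15, 101254269 to 101274795, plus strand), was at 0.424 TPM (Tom-) and 5.12 TPM (Tom+) in tumor #1, against 2.66 TPM (Tom-) and 1.78 TPM (Tom+) in tumor #2. It was the scarcest of the 10 genes in tumor #1 Tom- cells and rank 6 in Tom+ cells of that mouse, with a difference of 2.10 in tumor #1 and -0.39 in tumor #2.

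The comparison of Tom+ with Tom- cells asks whether B lymphoma cells with a history of Cre expression differ from those without. In tumor #1, 5 of the 10 genes (Fos, Fosb, Jun, Egr1 and Nr4a1) were at least 2-fold higher in Tom+ cells on the log2(TPM + 1) scale, and 0 were that much lower, where 3.37% of the genes tested were higher and 3.03% lower. All 5 also had their highest value in that library, as had 1.14% of the genes tested. In tumor #2, 0 of the 10 were 2-fold higher and 0 were 2-fold lower, against 4.52% and 5.05% of the genes tested. The median difference of the 10 genes was 1.25 in tumor #1 and -0.34 in tumor #2, beside -0.0029 and -0.057 over the genes tested. In tumor #1, 9 of the 10 were higher in Tom+ cells and 1 was lower, against 48.6% and 50.4% of the genes tested, and in tumor #2, 2 were higher and 8 were lower, against 42.9% and 56.6%. Opposite signs in the tumors were seen for 7 members and for 47.3% of the genes tested. Jun and Fosb were higher in Tom+ cells of both tumors (21.6% of the genes tested), by at most 0.10 in tumor #2, and Fosl2 was lower in both (29.5%). Since the members were proposed with these values known, nothing is read from these counts against the background.

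Over both tumors, limma's moderated test with the mouse as a block called 0 of the 11339 genes tested at an adjusted p-value of 0.05 (0%), and 0 of the 9 members tested. At an unadjusted p-value below 0.05 it called 530 genes (4.67%) and again 0 of the members. The log2 fold change over the tumors was 1.74 for Fosb (SE 0.94), 0.86 for Nr4a1 (SE 0.73), 0.78 for Fos (SE 0.82) and 0.56 for Egr1 (SE 0.72). The standard errors of Fos and Egr1 were larger than their changes, which had opposite signs in the tumors. Adjusted p-values of the 9 members from limma lay between 0.936 and 0.989. The design leaves 1 residual degree of freedom, and an exact permutation test within 2 pairs could not give a two-sided p-value below 0.5.

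**Figure D3:**
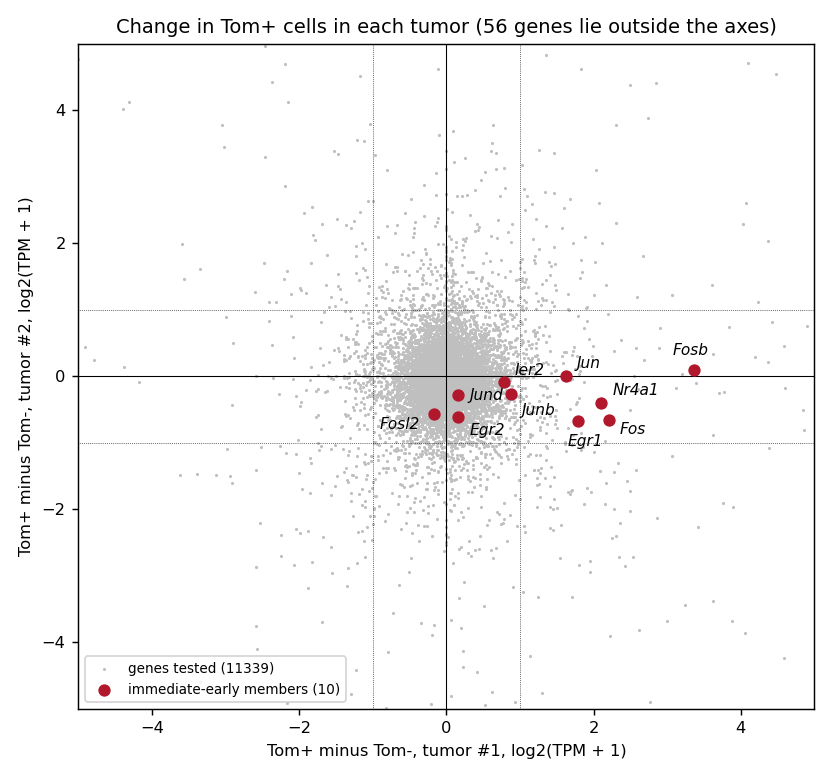
Difference between Tom+ and Tom- cells in tumor #1 (horizontal axis) and in tumor #2 (vertical axis), both in log2(TPM + 1), for the 11339 genes tested (gray) and the 10 immediate-early genes (red, Jun drawn although it was not tested). Dotted lines mark 2-fold. Fosb, Fos, Nr4a1, Egr1 and Jun lie to the right of 1 on the horizontal axis, and all 10 lie between -0.67 and 0.10 on the vertical axis.

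The tumors were also set side by side, with 1 mouse each and therefore without a test. In Tom- cells, Fosl2 and Nr4a1 were at least 2-fold higher in tumor #2 than in tumor #1 (18.6% of the genes tested were) and Fos was at least 2-fold lower (6%). In Tom+ cells, 7 of the 10 were at least 2-fold lower in tumor #2, against 7.98% of the genes tested, and Fosl2 was higher (18.3%). These 7 were Fos, Fosb, Jun, Egr1, Egr2, Ier2 and Nr4a1. The difference, tumor #2 minus tumor #1 in Tom+ cells, was -4.26 for Fos, -2.79 for Fosb and -2.22 for Jun on the log2 scale. This comparison shares the tumor #1 Tom+ library with the one within tumor #1, so the counts of both are set by the same high values. Fosl2, with 2.01 in Tom- and 1.61 in Tom+ cells, was the only member higher in tumor #2 in both populations.

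Across the 4 libraries, Egr1 was the member most like the other 9. Its Pearson r with their mean profile was 0.99, followed by Fosb (0.94), Jun (0.89) and Ier2 (0.81), while Jund had 0.27 and Fosl2 -0.62. With 4 libraries that share 2 mice these values are only a description. The genes outside the lists that were most like the mean profile were Stn1 (r = 0.957), Gmppb (0.94), Mettl17 (0.931), Ccdc63 (0.918), Cdk17 (0.896) and Cplane1 (0.886), out of 871 genes that averaged 5 TPM or more and had a range of at least 2 on the log2 scale. Stn1, which encodes a subunit of the telomere-capping CST complex, was at 8.43 TPM (Tom-) and 28.0 TPM (Tom+) in tumor #1, against 11.5 TPM (Tom-) and 4.76 TPM (Tom+) in tumor #2. The genes most like Fos alone were Mettl17 (r = 0.987), Gmppb (0.986), Ccdc63 (0.971), Cenpm (0.968), Cdk17 (0.964) and Cenpu (0.964). Mettl17, a methyltransferase-like protein of mitochondria, was at 23.2 TPM (Tom-) and 66.7 TPM (Tom+) in tumor #1, against 17.4 TPM (Tom-) and 10.7 TPM (Tom+) in tumor #2.

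Most of the 10 genes are short, the exceptions by span being Fosl2 (22042 bases) and Nr4a1 (20527 bases). Their longest coding transcripts in GENCODE M21 have a median of 2 exons, against 9 for the 10065 protein-coding genes tested, and 4 of them (Jun, Junb, Jund and Ier2) have no intron in it, as have 2.40% of those genes. The genes span a median of 4698.5 bases, against 23132. In their 3' untranslated regions 9 of the 10 hold the pentamer ATTTA of AU-rich elements, which mark mRNA for rapid decay, and so do 69.4% of 9920 genes tested with such a region. The longer element TTATTTATT was found in Fos and Fosl2 only, and in 8% of the genes tested. Fos and Nr4a1 had the highest density of the pentamer among the members, 4.91 and 5.52 per kb, against a median of 1.33 per kb over the genes tested.

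Other genes of the pathway were followed as lists, none of which held a gene called by limma at an adjusted p-value of 0.05 (0% of the genes tested). Genes named below beyond the 2 with the largest mean absolute difference in each list were picked after their values were seen. Counts of 2-fold differences in the lists are on the log2(TPM + 1) scale, which understates differences of genes with low TPM. On it the closest relatives within AP-1 differed less between Tom+ and Tom- cells than Fos did. Of 13 further bZIP genes, 6 were tested and 2 were at 0 TPM in all 4 libraries. In tumor #1 0 of the 13 were 2-fold higher or lower in Tom+ cells, beside 3.37% and 3.03% of the genes tested. In tumor #2 it was 0 as well, beside 4.52% and 5.05%. Some genes with low TPM did pass 2-fold in TPM, such as Batf and Atf3 in tumor #1. Batf, a lymphoid AP-1 factor that is a neighbor of Fos on chromosome 12, was at 0.802 TPM (Tom-) and 2.02 TPM (Tom+) in tumor #1, against 1.74 TPM (Tom-) and 1.41 TPM (Tom+) in tumor #2. Jdp2, an AP-1 repressor that lies between them, was at 2.16 TPM (Tom-) and 1.66 TPM (Tom+) in tumor #1, against 0.121 TPM (Tom-) and 0 TPM (Tom+) in tumor #2. Atf7, with a difference of 0.0052 in tumor #1 and 0.57 in tumor #2, was the other gene named by the size of its difference. Atf3, a stress-induced gene, was at no more than 0.506 TPM, and Fosl1 at no more than 0.38 TPM.

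Of the 6 further Egr, Nr4a and Nab genes, only the Nab corepressors were abundant enough for the test. Nab1, a corepressor of Egr proteins, was at 10.7 TPM (Tom-) and 8.67 TPM (Tom+) in tumor #1, against 10.8 TPM (Tom-) and 26.7 TPM (Tom+) in tumor #2, with its highest value in tumor #2 Tom+ cells, where Egr1 was lowest. Nab2, the inducible corepressor, was at 1.96 TPM (Tom-) and 1.12 TPM (Tom+) in tumor #1, against 1.87 TPM (Tom-) and 1.93 TPM (Tom+) in tumor #2. Egr3, Egr4, Nr4a2 and Nr4a3 stayed at or under 1.84 TPM.

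Of 36 other immediate-early genes, 27 were tested and 0 had an unadjusted p-value below 0.05 from limma (4.67% of all genes tested). In Tom+ cells of tumor #1, 3 were at least 2-fold higher (Dusp1, Dusp2 and Zfp36) and 0 lower, beside 3.37% and 3.03% of the genes tested. In tumor #2 1 was higher (Csrnp1) and 2 were lower (Dusp6 and Plk2), beside 4.52% and 5.05%. Dusp2, a nuclear phosphatase that switches off ERK, was at 13.7 TPM (Tom-) and 36.7 TPM (Tom+) in tumor #1, against 22.3 TPM (Tom-) and 13.2 TPM (Tom+) in tumor #2. Plk2, a kinase induced by serum, was at 8.68 TPM (Tom-) and 16.9 TPM (Tom+) in tumor #1, against 12.1 TPM (Tom-) and 4.80 TPM (Tom+) in tumor #2. Dusp1, a phosphatase that acts on JNK and p38, was at 2.01 TPM (Tom-) and 8.60 TPM (Tom+) in tumor #1, against 0.363 TPM (Tom-) and 0.317 TPM (Tom+) in tumor #2. These 3 genes were higher in Tom+ cells of tumor #1 and lower in those of tumor #2, as were Fos and 26.7% of the genes tested. The log2 difference of Dusp1 in tumor #2 was only -0.050. The list as a whole had a median difference of 0.12 in tumor #1 and -0.019 in tumor #2 over all 36 genes.

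Between the tumors, 13 of the 36 were at least 2-fold higher and 1 (Dusp1) lower in Tom- cells of tumor #2, beside 18.6% and 6% of all genes tested. In Tom+ cells 12 were higher and 5 lower (Dusp1, Dusp2, Dusp6, Plk2 and Gadd45b), beside 18.3% and 7.98%, so genes in general also ran higher in tumor #2. Among the higher ones were Mcl1, an inhibitor of apoptosis, at 47.4 TPM (Tom-) and 50.0 TPM (Tom+) in tumor #1, against 144 TPM (Tom-) and 143 TPM (Tom+) in tumor #2, and Btg2, an antiproliferative gene, at 18.5 TPM (Tom-) and 20.1 TPM (Tom+) in tumor #1, against 58.7 TPM (Tom-) and 48.9 TPM (Tom+) in tumor #2. Mcl1 and Btg2 thus differed more between the mice than between Tom+ and Tom- cells of a mouse.

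**Figure D4:**
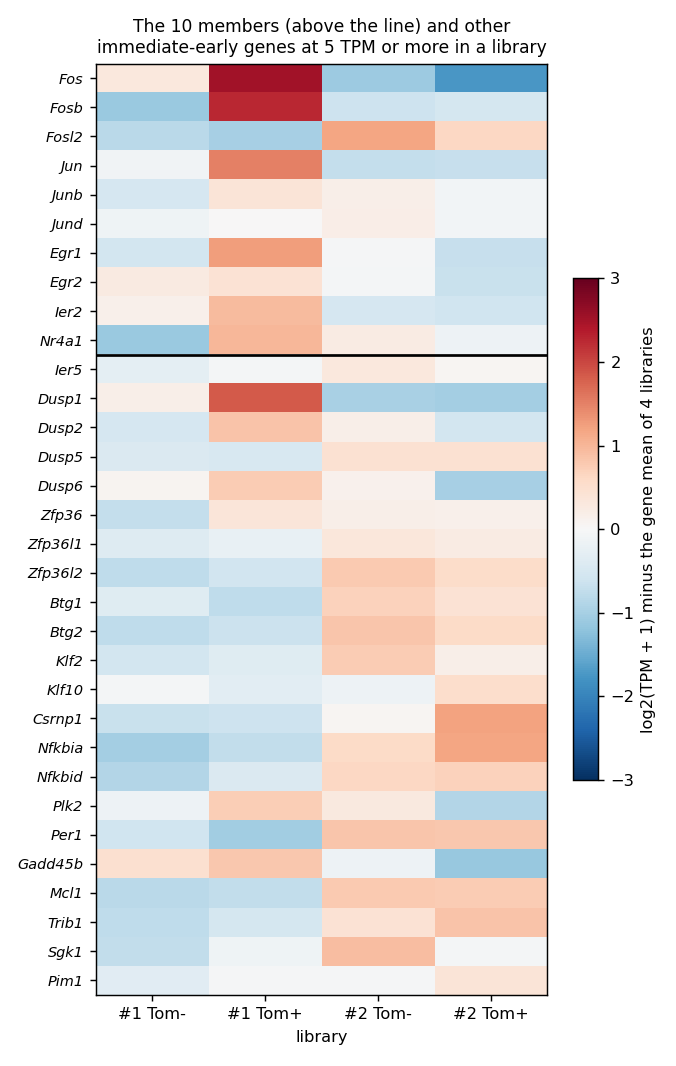
The 10 members (above the line) and the 22 other immediate-early genes that reach 5 TPM in a library (below it). Color gives log2(TPM + 1) minus the gene's mean over the 4 libraries, which stand in the columns. The second column, tumor #1 Tom+, is red for Fos, Fosb, Egr1, Nr4a1, Dusp1 and Dusp2, while Mcl1, Btg2, Zfp36l2 and Nfkbia are blue in both columns of tumor #1.

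Of 16 genes for factors that bind immediate-early promoters and their coactivators, 15 were tested. On the log2(TPM + 1) scale, 0 were 2-fold higher or lower in Tom+ cells of tumor #1, beside 3.37% and 3.03% of the genes tested. In tumor #2 1 was higher (Crtc1) and 1 lower (Elk3), beside 4.52% and 5.05%. Ratios of the TPM values given below can pass 2-fold where this scale does not. Srf, the factor of the CArG box, was at 6.02 TPM (Tom-) and 6.39 TPM (Tom+) in tumor #1, against 6.19 TPM (Tom-) and 5.6 TPM (Tom+) in tumor #2. Elk3, an Ets partner of Srf that can repress its targets, was lower in Tom+ cells of both tumors, at 4.61 TPM (Tom-) and 2.18 TPM (Tom+) in tumor #1, against 8.31 TPM (Tom-) and 2.59 TPM (Tom+) in tumor #2 (change of -1.10 over the tumors, SE 0.26, with limma's adjusted p at 0.936). Crtc3, a coactivator of CREB, was lower in both as well, at 6.62 TPM (Tom-) and 2.89 TPM (Tom+) in tumor #1, against 8.47 TPM (Tom-) and 3.80 TPM (Tom+) in tumor #2 (change of -0.97, SE 0.20, with limma's adjusted p at 0.936). Elk3 and Crtc3 were the 2 genes of this list with an unadjusted p-value below 0.05 (4.67% of the genes tested).

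Most kinases upstream of these factors differed little between Tom+ and Tom- cells. Of 10 genes for Jun kinases and their activators 9 were tested, and 0 were 2-fold higher or lower in either tumor. The shares of the genes tested were 3.37% and 3.03% in tumor #1, and 4.52% and 5.05% in tumor #2. Map2k7, which activates JNK, was at 29.1 TPM (Tom-) and 40.4 TPM (Tom+) in tumor #1, against 51.7 TPM (Tom-) and 43.2 TPM (Tom+) in tumor #2, and Map3k7 (TAK1) had differences of -0.37 and -0.32. All 11 genes for ERK, p38 and their RSK and MSK effectors were tested, and in each tumor 9 of the 11 were lower in Tom+ cells, with a single gene at least 2-fold lower (Map2k2 in tumor #2). Over the genes tested, 50.4% were lower in tumor #1 and 56.6% in tumor #2, with 5.05% at least 2-fold lower in the latter. Rps6ka3 (RSK2) was the only gene of this list with an unadjusted p-value below 0.05. Map2k2 (MEK2) had differences of -0.33 and -1.17, and Rps6ka1 (RSK1) of -0.32 and -0.94 (adjusted p = 0.936 for both from limma). Among 13 genes for the turnover of immediate-early mRNA and protein, 5 of which are also in the list of other immediate-early genes, Zfp36 (tristetraprolin), which binds AU-rich elements and speeds mRNA decay, was at 5.87 TPM (Tom-) and 13.6 TPM (Tom+) in tumor #1, against 11.9 TPM (Tom-) and 11.6 TPM (Tom+) in tumor #2. Btg1 had differences of -0.41 and -0.25, and in tumor #2 12 of the 13 were lower in Tom+ cells, beside 56.6% of the genes tested.

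**Figure D5:**
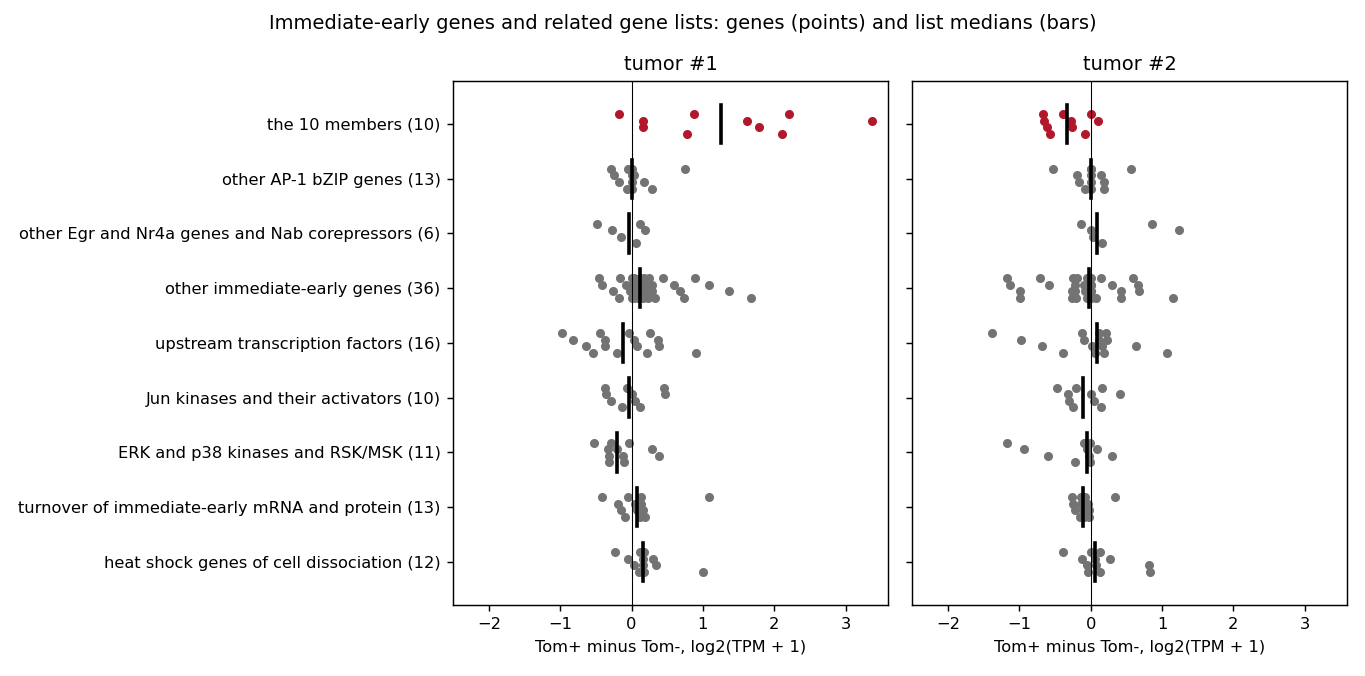
Difference between Tom+ and Tom- cells in log2(TPM + 1) for the 10 members and the related gene lists, in tumor #1 (left) and tumor #2 (right). Points are genes, bars are list medians, and the number of genes stands after each name. The members' median is 1.25 in tumor #1 and -0.34 in tumor #2, while the medians of the other lists lie between -0.21 and 0.16.

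Heat shock genes, which often rise together with immediate-early genes in dissociated tissue, were followed as a further list. An effect of dissociation was not tested. In tumor #1, 10 of 12 were higher in Tom+ cells, with a median of 0.16, beside 48.6% of the genes tested. In tumor #2 7 were higher, with a median of 0.067, beside 42.9%. Dnajb4 was at least 2-fold higher in tumor #1, as were 3.37% of the genes tested. The 12 genes summed to 8022 TPM (Tom-) and 7851 TPM (Tom+) in tumor #1, against 4943 TPM (Tom-) and 5008 TPM (Tom+) in tumor #2. The inducible Hspa1a was at 0.175 TPM (Tom-) and 0.323 TPM (Tom+) in tumor #1, against 0.069 TPM (Tom-) and 0.045 TPM (Tom+) in tumor #2. Hspa1b was at 0.123 TPM (Tom-) and 0.427 TPM (Tom+) in tumor #1, against 0.147 TPM (Tom-) and 0.384 TPM (Tom+) in tumor #2. Both were thus highest in tumor #1 Tom+ cells, but all of these values are low. Dnajb4 was at 3.14 TPM (Tom-) and 7.29 TPM (Tom+) in tumor #1, against 9.56 TPM (Tom-) and 17.7 TPM (Tom+) in tumor #2, and Hsph1 had differences of 0.11 and 0.82. Dnajb4 was the only gene of the list with an unadjusted p-value below 0.05 (adjusted p = 0.936 from limma).

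Markers of other cells were set beside these values, since a bulk library cannot tell fewer cells of a type from less RNA per cell. The 8 B cell markers were present in every library and summed to between 1061 and 2968 TPM. Myeloid markers (10 genes) summed to 3.41 TPM (Tom-) and 5.23 TPM (Tom+) in tumor #1, against 15.8 TPM (Tom-) and 7.90 TPM (Tom+) in tumor #2. Cd68 was at 1.92 TPM (Tom-) and 4.11 TPM (Tom+) in tumor #1, against 4.58 TPM (Tom-) and 6.41 TPM (Tom+) in tumor #2. Csf1r was at no more than 0.0695 TPM. Higher in Tom+ cells were 5 of the 10 in tumor #1 (48.6% of the genes tested) and 3 in tumor #2 (42.9%). Lower were 4 in tumor #1 (50.4%) and 7 in tumor #2 (56.6%). The 8 T cell markers summed to between 0.748 and 8.63 TPM. Most of the highest sum was Cd3d, at 7.77 TPM in tumor #2 Tom- and 2.09 TPM in tumor #2 Tom+ cells. Cd3e was at no more than 0.0687 TPM. Lat was at 0.205 TPM (Tom-) and 1.78 TPM (Tom+) in tumor #2, and Cd3g at 0.104 TPM (Tom-) and 1.35 TPM (Tom+). In that tumor 5 of the 8 were higher in Tom+ cells and 3 lower, beside 42.9% and 56.6% of the genes tested. The 5 NK cell markers summed to at most 0.592 TPM with 4 of them listed at 0 in every library, and the 5 dendritic cell markers to at most 2.58 TPM. All of these sums were highest in a library of tumor #2. The 4 platelet markers were highest in tumor #1 Tom+ cells, at 2.35 TPM against at most 0.12 TPM elsewhere, but all of it was Itga2b, while Pf4, Ppbp and Gp9 were listed at 0 in every library. Hbb-bs, a red cell gene, was at 18.8 TPM (Tom-) and 16.1 TPM (Tom+) in tumor #1, against 0 TPM (Tom-) and 0.699 TPM (Tom+) in tumor #2. Of the 5 stromal and endothelial markers Pecam1 made up nearly all, at 14.2 to 49.7 TPM. The 5 plasma cell markers summed to between 30.2 and 34.7 TPM in 3 libraries and to 260 TPM in tumor #2 Tom+ cells, where Jchain was at 209 TPM against at most 1.72 TPM elsewhere. The other plasma cell markers differed less, with Irf4 between 14.6 and 29.4 TPM, Xbp1 between 10.6 and 21.2 TPM, Prdm1 at no more than 0.57 TPM and Sdc1 at no more than 1.95 TPM, its highest value being in tumor #1. Mitochondrial genes took between 6.61% and 15.6% of TPM and pseudogenes between 23.4% and 31.3%, and the tumor #1 Tom+ library was at neither end of these ranges, with 8.67% and 30.3%. The part of other cells in the members' values was not tested.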

How the data were processed

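RNA was measured in sorted Tom+ and Tom- B220+ IgM+ spleen cells of 2 mice, the replicates, with 1 library per population and mouse. Per the labels and the study's methods, the deposited TPM of each gene came from single reads that the authors cleaned of adaptors (Cutadapt) and assigned to mouse transcripts (Salmon). The submitters' processing notes name Salmon 1.9 and CASAVA 1.8. How transcripts were summed to genes is not given in the sources used here. The authors' paired test used counts, which were not used here. Of 34866 gene identifiers, 34652 were found in GENCODE M21, which gave names and positions and is newer than the release that the methods name. Genes that reached 1 TPM in 2 or more libraries were tested on log2(TPM + 1) with limma 3.58.1 in R 4.3.3, with the mouse as a block, a variance trend and Benjamini-Hochberg adjustment. The libraries of a mouse pair by animal, and their deviations from the group means correlated across genes (r = 0.626). The fit was run on simulated data with noise drawn from its own variances. That check required only that most planted changes keep their sign. It does not show how many real changes the fit can call. Members, gene lists and comparisons were chosen with earlier results of these data known. From each list the 2 tested genes with the largest mean absolute difference over the tumors were named, beside the genes most like the members. Python 3.11.15 with pandas 2.3.3 computed the rest. Alternatives were other scalings, pseudocounts and filters, no block, no trend, and each mouse left out. The gene whose locus carries the Cre is not reported here.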

Additional observations from a re-analysis of the deposited data

Results flagged for a closer look

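Among the members and the genes named from each list by the size of their difference, 14 had Tom+ above Tom- in the library pair of a mouse and below it in that of the other mouse. With 1 mouse on each side, the difference between the tumors was not tested. The log2 difference of tumor #1 minus that of tumor #2 was 2.86 for Fos, 2.50 for Nr4a1 and 2.46 for Egr1. It was 1.14 for Junb, 0.86 for Ier2, 0.78 for Egr2 and 0.44 for Jund. Among the other genes named it was 2.08 for Dusp2, 2.06 for Plk2, 1.11 for Zfp36, 0.93 for Batf and 0.71 for Map2k7. The Nab corepressors went the other way, with -1.51 for Nab1 and -0.51 for Nab2. Opposite signs were common, being seen for 47.3% of all genes tested.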

How the results depend on the processing

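Under every alternative fit run, limma called 0 genes at an adjusted p-value of 0.05. Without the replicate block that pairs the libraries of a mouse, 140 genes had an unadjusted p-value below 0.05, against 530 with it, and the block changed no call of a member. The median difference of the members lay between 1.18 and 1.64 in tumor #1 and between -0.44 and -0.27 in tumor #2 across scalings and pseudocounts. With pseudocounts of 0.1 and 0.5, 6 members were at least 2-fold higher in Tom+ cells of tumor #1 (5 with a pseudocount of 1). With a pseudocount of 0.1, 1 member was 2-fold lower in Tom+ cells of tumor #2 (0 with a pseudocount of 1), and 2 were 2-fold lower in Tom- cells of tumor #2 than of tumor #1 (1 otherwise). Quantile normalization gave 1 higher and 2 lower in that comparison. Leaving out 1 mouse gave Fos -0.66 to 2.21, Junb -0.26 to 0.88, Jund -0.28 to 0.16, Egr1 -0.67 to 1.79, Egr2 -0.61 to 0.16, Ier2 -0.081 to 0.78 and Nr4a1 -0.39 to 2.10 on the log2 scale, and a median of the members of -0.34 to 1.25 (0.46 with both). Jund was also at 0.0010 with immunoglobulin and mitochondrial genes left out, and the cause was not tested. The depth of the libraries is unknown, so the counting error of low values such as those of Jun and Egr2 cannot be given.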
